A study of Olea europaea with 6 samples.

Results

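GO245913_1 is an olive expressed sequence tag (EST, a partial read of a cDNA clone) that the study annotates with carbohydrate metabolism and with control of meristem growth. It was 1 of 54615 probe sets on a one-colour Cy3 oligonucleotide array, 5543 of which were designed on olive ESTs and 49072 on poplar gene models, and it was read by 3 probes. The EST was selected on measured values, since the study lists it among the transcripts that differed in signal between mature and juvenile leaves in both bearing years. All leaf values below are therefore descriptions without a test. The only test of its level compares the 4 fruit arrays, which took no part in that choice. Its estimate of the spread was shared with the leaf arrays.

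RNA came from olive (Olea europaea) of the cultivar Ayvalık. The 6 groups were unripe fruit (UF, July), ripe fruit (RF, October), juvenile (July) and mature (November) leaves from an off year (OFF-J and OFF-M, in that order), and the same stages in the on year (ON-J and ON-M). Each group had 2 arrays except ON-M, which had 1 here, making 11 in all. The leaves were from neighbouring trees in consecutive calendar years, so that bearing year, calendar year and tree cannot be told apart, and the fruits were from an on tree. Leaf stage and fruit ripeness each went with the month of sampling, so that stage and season cannot be told apart either. The study calls its replicates biological, but it describes only 2 trees and fruits from an on tree. No source used here says that replicates of a group came from separate trees. A p-value between the fruits therefore reflects the spread among these samples and not among trees, and this spread may be technical. Values are log2 signals, so that a difference of 1 is a doubling. On every array a random control set, which should bind no transcript, marked the background. It lay between 5.18 and 5.48. Precision is limited throughout by how few arrays there were.

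Meristems are the regions of dividing cells from which plants make new organs, and their growth is under the control of receptor kinases, hormones and transcription factors. It also depends on sugar, which leaves make and growing fruits and shoots draw on. In olive a heavy crop is commonly followed by a light one, which is called alternate bearing. Carbohydrate supply and the activity of buds are both long-standing subjects in work on this rhythm. The EST had no position on a genome here, because the RefSeq gene table of olive matched 0 of the probe set names, and no sequence of it is printed.

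The EST was brightest in mature leaves and dimmest in ripe fruit. The OFF-M arrays read 12.08 and 12.25, and the ON-M array read 11.10. The UF arrays came next with 10.49 and 10.64. In juvenile leaves the level was 8.23 and 8.32 in ON-J and 7.47 and 7.02 in OFF-J, and the RF arrays read 5.71 and 6.68. No 2 groups overlapped. Both November groups and the unripe July fruit were above 10, while juvenile leaves in both years and ripe fruit were below 9.

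**Figure D1:**
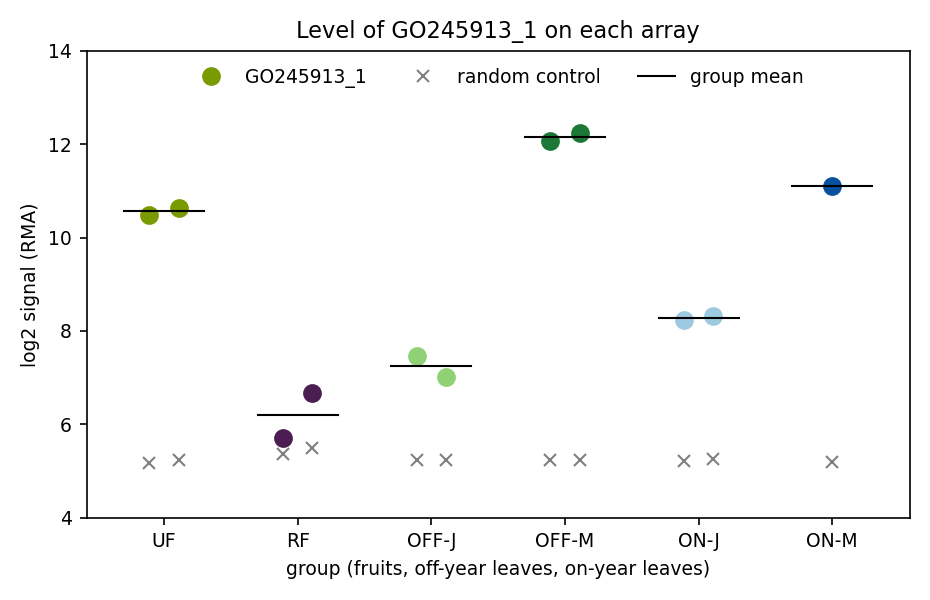
Each filled point is the log2 signal of GO245913_1 on 1 array (y axis) in the 6 groups (x axis), the line is the group mean and the crosses are the random control set of the same array. OFF-M, ON-M and UF sit above 10, ON-J and OFF-J between 7.02 and 8.32, and the RF arrays are nearest to the crosses.

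Group means were 12.16 ± 0.12 in OFF-M, 10.56 ± 0.11 in UF, 8.28 ± 0.06 in ON-J, 7.24 ± 0.32 in OFF-J and 6.19 ± 0.69 in RF (SD, n = 2 each). From high to low the order was OFF-M, ON-M, UF, ON-J, OFF-J and RF. Along this order the nearest arrays of OFF-M and ON-M were 0.98 apart, those of ON-M and UF 0.45, those of UF and ON-J 2.16 and those of ON-J and OFF-J 0.76. Each of these steps was larger than the wider replicate gap of its pair, which was 0.17, 0.16, 0.16 and 0.45 in the same sequence. OFF-J and RF were the only neighbours that did not differ beyond their spread, with nearest arrays 0.34 apart against a gap of 0.97 between the RF replicates. Taken relative to the olive median of its own array, the EST overlapped in these groups, at -4.13 and -3.54 in RF and -3.65 and -3.78 in OFF-J.

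Set against the random control of the same array, the EST stood far above background in mature leaves and close to it in ripe fruit. The mean signal was 121-fold the random control in OFF-M, 59.7-fold in ON-M and 40.9-fold in UF. It was 8.19-fold in ON-J and 3.99-fold in OFF-J. In RF it was 1.71-fold, with the arrays 0.35 and 1.20 above the control on the log2 scale. The size of any difference that involves RF therefore depends on the background.

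In off-year leaves the EST was higher at maturity by 4.92 on the log2 scale (standard error 0.33), or 30.2-fold. It ranked 2 among all 54615 probe sets, olive or poplar, for a positive difference between OFF-M and OFF-J. The median difference of the olive sets was 0.11, and the 99th percentile was 2.91. The replicate gaps of the EST were 0.45 in OFF-J and 0.17 in OFF-M, so that the 2 mature arrays were far above both juvenile arrays. As the contrast that chose the EST, it is shown for its size alone.

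In on-year leaves the same difference was 2.82 (standard error 0.40), or 7.07-fold. It ranked 4 among the positive differences of olive sets and 25 among those of all sets. The olive median here was -0.20, and the 99th percentile was 1.32. The lone ON-M array, whose spread had to be borrowed from the other groups, was above both ON-J arrays.

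The EST thus had the larger stage difference in the off year, and the lower starting level. The off-year difference exceeded the on-year one by 2.10 on the log2 scale, where the olive median of the same quantity was 0.44 and the EST ranked 557 among the olive sets. With each array centred on its olive median the excess was 1.03. In juvenile leaves ON-J was above OFF-J by 1.03 (standard error 0.33), or 2.04-fold. In mature leaves the order was turned, with ON-M below OFF-M by 1.06 (log2 difference -1.06, standard error 0.40), or 2.09-fold. Both bearing-year differences depended on scaling, since they were 0.67 and -0.36 with each array centred on its olive median. That median was 10.66 on the ON-M array and 11.34 and 11.40 on the OFF-M arrays.

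**Figure D2:**
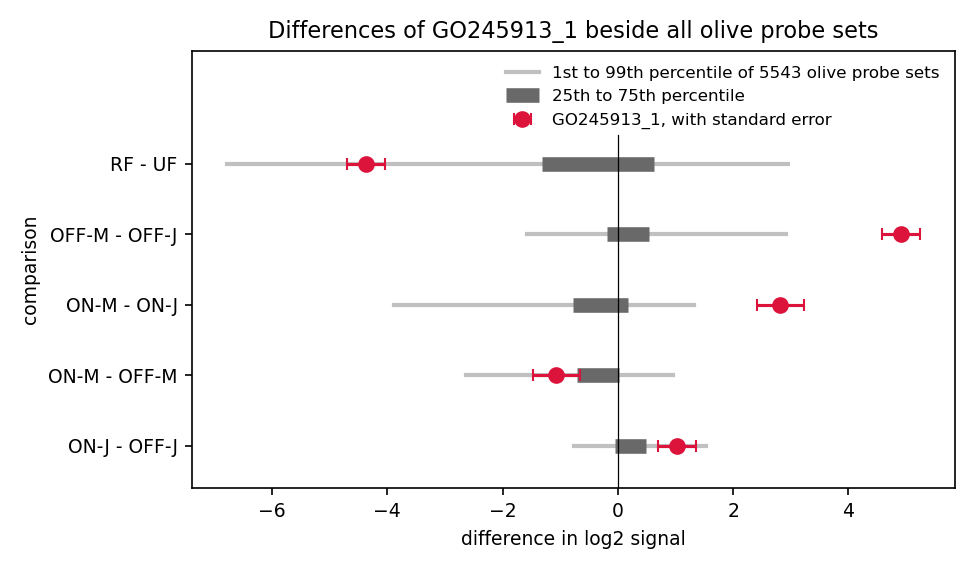
The x axis is the difference in log2 signal for the 5 comparisons on the y axis. Red points are GO245913_1 with its standard error, and the bars are the 1st to 99th and the 25th to 75th percentiles of the 5543 olive probe sets. The EST lies above the 99th percentile in both stage comparisons of leaves and inside the wide bar in the other 3.

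In fruit the EST went the other way, from a high level before ripening to a low one after it. The difference between RF and UF was -4.37 (standard error 0.33), or 20.7-fold lower in RF, and it passed the test (two-sided limma over all probe sets, Benjamini-Hochberg adjusted p = 4.45e-05). The spread in that test was shared over all 11 arrays, most of them leaves. With the fruit arrays alone the standard error was 0.40 (limma adjusted p = 0.015). Both RF arrays were below both UF arrays by more than the RF replicate gap of 0.97. A call required a log2 difference of at least 2 together with an adjusted p under 0.05. By that rule 6.76% of all probe sets were called between RF and UF, 3.30% higher and 3.46% lower in RF. Among the olive sets 21.0% were called, with 17.3% lower in RF (959 of 5543), and the EST ranked 328 among the olive sets by size of fall. Signal near the random control in RF limits this rank. A fall at ripening was therefore common among olive ESTs, and the olive medians were also lowest on the RF arrays, at 9.83 and 10.22 against 11.04 on both UF arrays. Whether those lower medians had a part in the result was not tested, but with olive-median centring the EST still fell by 3.36. Under that centring the calls over all sets rose from 3691 to 9864. Counts of list members under it, given below, have no background share beside them. The methods' t-test on the 4 fruit arrays gave an unadjusted p of 0.0125, and 0.121 after adjustment, so that it passed that test before adjustment and not after it. In such bulk tissue, fewer cells of a type and less RNA per cell cannot be told apart.

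Fruits and leaves of the same season can be set side by side in the same values. The fruits were collected in the calendar year of the off-year leaves, but from an on tree. Differences from ON-J and ON-M are therefore also between calendar years, and those from OFF-J and OFF-M also between bearing states. In July, UF was above OFF-J by 3.32 and above ON-J by 2.29, or 9.98-fold and 4.89-fold. In autumn, the log2 difference of RF in October from OFF-M in November was -5.97 (62.6-fold lower), and from ON-M it was -4.90 (29.9-fold lower). The EST was thus higher in fruit than in leaf in July and lower in fruit than in leaf in autumn. These comparisons share the leaf and fruit arrays of those above and add no separate measurement.

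Some other ESTs followed the EST closely over the 11 arrays. Likeness was measured by Pearson's r of the log2 values, among the 2660 olive and 14756 poplar probe sets whose values spanned at least 2 on that scale. Of these, 8 olive and 5 poplar sets reached an r of 0.9, where the median r was 0.329 among olive and -0.121 among poplar sets. These correlations describe 11 points, which share 6 groups and the scaling of each array. The 11 are the fruit and leaf arrays themselves. This choice therefore largely set the direction of fruit and leaf differences in the sets most and least like it. The p-values given for those sets are therefore no separate evidence.

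The olive EST most like it was GO245535_1 (r = 0.945), annotated with the response to karrikin, a compound of smoke that stimulates germination. Its arrays read 10.57 and 10.67 in UF, 6.40 and 7.30 in RF, 9.48 and 8.79 in OFF-J, 13.40 and 13.59 in OFF-M, 9.65 and 10.06 in ON-J and 13.65 in ON-M. Like GO245913_1 it was lowest in RF and high in mature leaves, and it fell between UF and RF (log2 difference -3.77, limma adjusted p = 0.000156). In mature leaves its ON-M value was 0.16 above OFF-M, where that of GO245913_1 was 1.06 below (0.86 and -0.36 with olive-median centring). The difference between the 2 ESTs was not tested.

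The next 4 olive ESTs were GO245187_1, FL683410_1, FL684374_1 and GO244211_1, with r between 0.927 and 0.938 and no process given for any of them. GO245187_1 fell most between UF and RF, from 12.06 and 12.08 to 6.83 and 7.13 (log2 difference -5.09, limma adjusted p = 1.19e-05). FL683410_1 fell from 11.13 and 11.14 to 7.71 and 8.29 (log2 difference -3.13, limma adjusted p = 0.000631). FL684374_1 and GO244211_1 differed by -1.76 and -1.13, under the size required of a call, which FL684374_1 reached only without RF replicate 2 (-2.30). With olive-median centring they differed by -0.75 and -0.12 (limma adjusted p = 0.0735 and 0.733). All 4 had a larger stage difference in the off year (1.64 to 3.07) than in the on year (0.40 to 1.12), and all 4 were lower in ON-M than in OFF-M, by differences of -0.63 to -1.24. The choice by r over arrays that include the leaves favoured this pattern. The olive medians went the same way, at 0.44 for the off-year excess and -0.26 for ON-M minus OFF-M. With olive-median centring ON-M was below OFF-M in 3 of them (-0.17 to -0.53) and GO244211_1 was at 0.08, with stage differences of 1.23 in the off year and 1.22 in the on year.

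**Figure D3:**
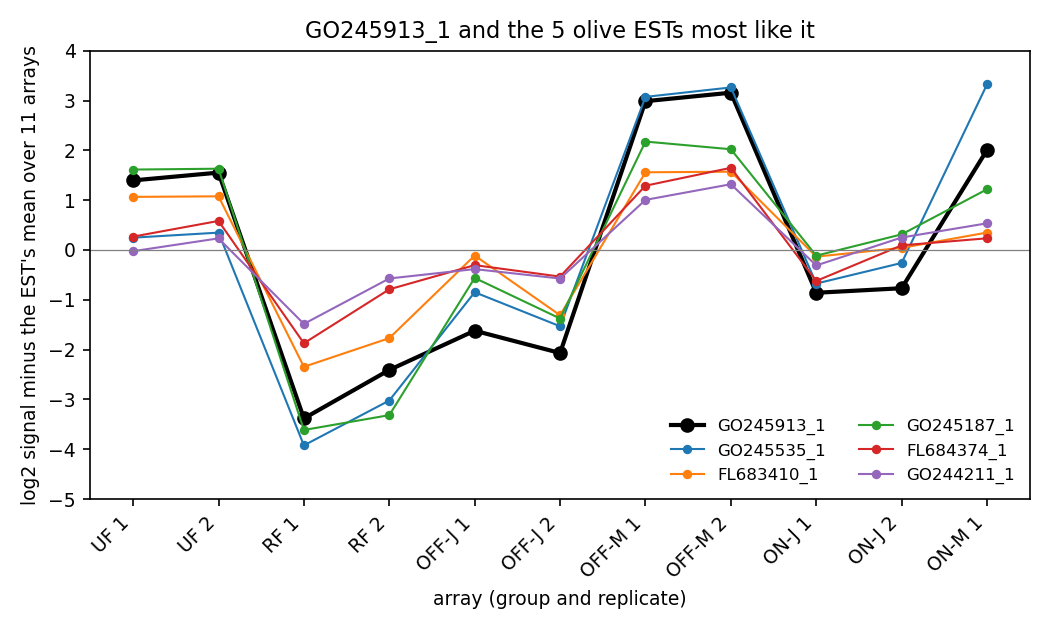
The y axis is the log2 signal of an EST on an array minus its own mean over the 11 arrays (x axis, by group and replicate). The black line is GO245913_1 and the coloured lines are the 5 olive ESTs most like it, which all have low points in RF and high points in OFF-M. GO245535_1 is higher in ON-M than in OFF-M, and GO245913_1 is lower there.

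The poplar set most like it was gw1.XIV.1672.1 (r = 0.957), which has no annotation here and read 7.83 and 7.58 in UF, 5.78 and 6.31 in RF, 7.95 and 7.91 in OFF-M and 8.03 in ON-M. The following poplar sets carry terms of sugar metabolism beside other terms. Poplar probes were hybridized here with olive cDNA, and which olive transcript they bound is not known. fgenesh4_pg.C_scaffold_9882000001 (r = 0.933) is annotated with trehalose, a sugar whose phosphate acts as a signal of sucrose status in plants. Its other terms are cell wall formation and embryo development. gw1.XII.30.1 (r = 0.919) is annotated with maltose, a product of starch breakdown, and also with starch synthesis. Phosphatidylcholine synthesis and polyamine breakdown are among its other terms. None of these 3 was called between RF and UF, where they differed by -1.66, -1.69 and -1.79. With olive-median centring these were -0.65, -0.69 and -0.79. Without RF replicate 2 the trehalose set differed by -2.35, and without RF replicate 1 the maltose set differed by -2.19. The trehalose set read 4.35 and 5.66 in RF, where the random control read 5.36 and 5.48. Its -2.35 thus rests on an RF array below background. The choice of measure mattered to this list, since only 2 of the 5 olive ESTs remained among the first 5 by Spearman's rho and none by r over the 7 leaf arrays alone. With 6 group means, 4 remained, and with olive-median centring 3.

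The other olive ESTs with the meristem growth term did not share its pattern in leaves. There were 5 of them, and in contrast to GO245913_1, all 5 had a lower ON-M than ON-J level, with differences of -2.10 to -4.50 and a median of -3.88. In off-year leaves the differences of 4 were negative and the range was -1.61 to 0.55. These leaf values are a description, because the annotated lists come from the study's own tables of leaf comparisons of the same samples. The lists also draw on its tables in the text, including that of its largest differences between fruits.

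Between RF and UF, 2 of the 5 fell, where 17.3% of olive sets were called lower. GO244431_1, annotated with phosphorylation as well as meristem growth, read 10.93 and 11.34 in UF and 6.14 and 4.81 in RF (log2 difference -5.67, limma adjusted p = 2.96e-05). GO243610_1, whose terms also include anther development, methionine synthesis and cell wall formation, read 11.20 and 11.10 in UF and 5.32 and 6.31 in RF (log2 difference -5.33, limma adjusted p = 1.31e-05). Both were near the random control in ripe fruit, as GO245913_1 was. In leaves they were highest in ON-J, at 13.33 and 13.53 for GO244431_1 and 11.78 and 11.97 for GO243610_1.

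The 3 others were not called between RF and UF. GO243445_1 and GO244609_1, both annotated with the synthesis of cutin, the polymer of the plant surface, differed by -0.66 and -0.38. Their ON-M levels, 6.47 and 8.21, were the lowest of their 11 arrays. FL683832_1, annotated with auxin and brassinosteroid signalling and phloem transport, differed by -1.0. This was also the median of the list, beside -0.11 over all olive sets, and 0.01 with olive-median centring, under which the same number, 2, were lower.

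**Figure D4:**
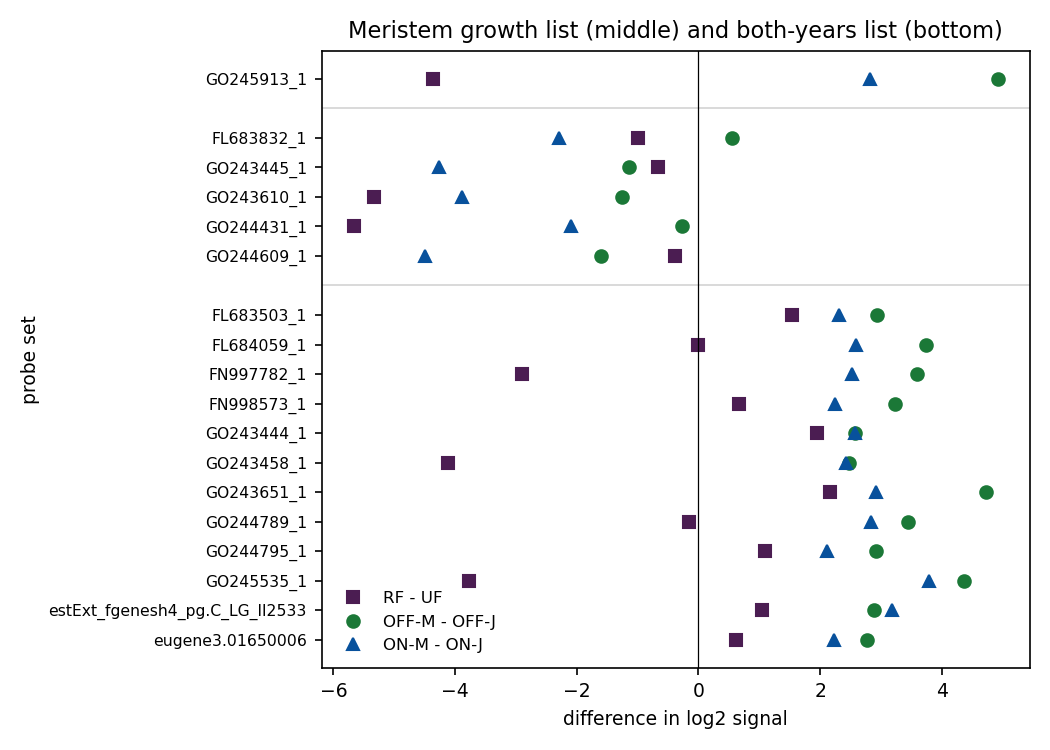
Each row (y axis) is 1 probe set and the x axis is its difference in log2 signal for RF minus UF (squares), OFF-M minus OFF-J (circles) and ON-M minus ON-J (triangles). GO245913_1 is at the top, the 5 other ESTs of the meristem growth list are in the middle with all triangles below 0, and the 12 other transcripts of the both-years list are at the bottom with circles and triangles above 2.

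ESTs of carbohydrate metabolism differed among themselves. A block of 97 olive ESTs carries carbohydrate metabolism as its only term. Of these, 61 were called higher in RF and 1 lower, against 3.73% higher and 17.3% lower among olive sets, and the median difference was 2.25 (93 higher with olive-median centring, where the median was 3.26). The shares are those of the deposited values and do not apply to the centred count. Most of the block are flower ESTs and may be copies of few transcripts, so that they are not separate observations. The largest rise was in FN998323_1, from 9.39 and 9.38 to 12.25 and 12.76, and the 1 EST that fell was GO242798_1, from 8.77 and 8.88 to 6.57 and 5.90. GO245913_1, which carries the same term with the meristem one, went with the latter. In leaves the block had a median difference of 2.72 in the off year and 0.33 in the on year.

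Of the 7 transcripts with carbohydrate metabolism beside other terms, 3 were lower in RF and the other 4 were not called, beside 17.3% lower among olive sets, to which 4 of the 7 belong, and 3.46% among all sets. With olive-median centring 1 was lower and 2 higher. GO243378_1, annotated also with the response to salicylic acid, went from 11.35 and 11.47 in UF to 6.60 and 6.73 in RF (log2 difference -4.75, limma adjusted p = 4.55e-06). In leaves it was lower at maturity in both years, by differences of -0.79 in the off year and -2.24 in the on year, opposite to GO245913_1.

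Of 20 transcripts with terms of single sugars, starch or glycolysis, 7 were lower and 2 higher in RF (median -0.99). The list includes transcripts whose only such term is the response to sucrose, which is not a term of metabolism. Both that were higher are of this kind. The list held 12 olive members, and 17.3% of olive sets and 3.46% of all sets were lower. The lists overlap, so that their counts are not separate. The fall of eugene3.00081119 (-2.42) is counted here and among transcripts with carbohydrate metabolism beside other terms. By its xylan and xyloglucan terms it is also among the wall polymers below. With olive-median centring, to which these shares do not apply, 4 were lower and 5 higher, so that the direction of this list is not settled. Nearest to GO245913_1 among its olive members was GO243101_1 (r = 0.872), annotated with starch metabolism and circadian rhythm. It read 11.01 and 10.83 in UF, 7.19 and 7.93 in RF, 8.69 and 8.02 in OFF-J, 11.12 and 11.25 in OFF-M, 9.22 and 9.71 in ON-J and 8.74 in ON-M. It was higher at maturity in the off-year values but not in those of the on year, where the single ON-M array was below both ON-J arrays. The transcripts with the largest rise in RF were FL683529_1 (8.97) and GO243553_1 (3.90), which carry terms of the response to sucrose together with anthocyanin synthesis. FL683529_1 and, among those that were lower, GO243351_1 are in the study's list of its largest differences between fruits. Those 2 calls are therefore not separate from how the list was made.

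Of 8 transcripts of wall polymers, 5 were lower in RF and 3 were not called (median -2.53), and with olive-median centring 3 were lower and 1 higher. In the deposited values the background share called lower was 17.3% among olive sets, to which 6 of the 8 belong, and 3.46% among all. GO243690_1, annotated with pectin and cellulose metabolism, went from 13.37 and 13.30 to 7.33 and 5.98. FL683540_1, annotated with cellulose synthesis, went from 13.17 and 13.37 to 7.60 and 8.42. As a check of green tissue, 2 of 6 photosynthesis transcripts were lower in RF and 4 were not called (median -1.56), beside the 3.46% of all sets and 17.3% of olive sets that were lower. These 2, GO243351_1 and GO243286_1, are also counted among the lower members of the sugar list. With olive-median centring 1 was lower and the median was -0.55. GO243351_1, of photosystem assembly and electron transport, went from 13.10 on both UF arrays to 4.88 and 4.98 in RF, which is below the random control there. The study lists it among its largest differences between fruits, so that its call is not separate from how the list was made. Whether the falls of the 2 photosynthesis transcripts had a part in that of GO245913_1 was not tested.

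The EST was also set beside the 12 other transcripts that the study lists as higher in mature leaves in both years. By that choice all of them were higher at maturity here, by 2.47 to 4.72 in the off year and 2.11 to 3.79 in the on year. Beside them, GO245913_1 had the largest off-year difference of the 13 (4.92), and its ON-M level was farther below OFF-M (-1.06) than that of any of the 12, whose differences were -0.52 to 0.28. With olive-median centring this difference of GO245913_1 was -0.36.

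In fruit the 12 did not go one way. Between RF and UF, 3 fell, 1 rose and 8 were not called, with a median of 0.64. Of the 12, 10 are olive sets, among which 17.3% were lower and 3.73% higher. Those that fell were both karrikin ESTs, GO245535_1 and FN997782_1 (log2 difference -2.90, limma adjusted p = 0.000492), and GO243458_1, annotated with transcription and cell growth (log2 difference -4.11, limma adjusted p = 1.92e-05). GO243651_1, annotated with proteolysis, rose from 11.83 and 11.29 to 13.71 and 13.75 (log2 difference 2.17, limma adjusted p = 0.0018), a call lost without UF replicate 2. Without RF replicate 1 the median of the 12 was 0.62. With olive-median centring 5 of the 12 were higher and 2 lower, and the shares above do not apply to that scaling. The falls of GO245913_1, GO243458_1 and FN997782_1 all ended near the random control, so that their sizes are not ranked against each other. In RF, GO243458_1 read 4.94 and 5.48 and FN997782_1 read 6.58 and 5.81.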

How the data were processed

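The authors hybridized Cy3-labelled cDNA to NimbleGen arrays, quantified the scans in DEVA, subtracted background, applied quantile normalization and RMA and averaged the spots of a transcript. They deposited log2 values per array, used here without further normalization, and a log2 average per sample, which equalled the array means (largest gap 0). For RMA the version is not given in the sources used here. The random control set (1) was left out. A second ON-M array was not analysed here. The qRT-PCR measurements of this EST were not used here.

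limma 3.58.1 in R 4.3.3 was fitted to 54615 probe sets and 11 arrays with a mean for each group (residual degrees of freedom 5, prior 3.67). It was tested on simulated data. Python 3.11.15, pandas 2.3.3, numpy 2.4.6 and matplotlib 3.10.9 served for the rest. GO terms are those of the study's tables, of which 708 transcripts matched a probe set and 4 names did not. Named transcripts were the EST, the 5 olive and 3 poplar sets most like it and the 3 olive sets least like it, the meristem and both-years lists, and the 2 extremes of other lists in each direction. GO243101_1, the olive member of the sugar list with the highest r, was chosen after its values were seen. The EST, lists and tests were chosen with earlier results of these data known. Array numbers are file order and pair no samples. The alternatives were other tests, scalings, filters and left-out arrays.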

Additional observations from a re-analysis of the deposited data

How the results depend on the processing

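The fall of GO245913_1 between UF and RF kept its direction under every alternative run and stayed called by limma. It was -3.36 with olive-median centring, -4.41 with all-set centring and -4.37 with repeated quantile normalization, and -4.86 to -3.88 when 1 fruit array was left out (adjusted p = 1.08e-05 to 0.0012). With the fruit arrays alone the limma adjusted p was 0.015. The methods' t-test gave the same difference, -4.37, with a Benjamini-Hochberg adjusted p of 0.121. Array numbers share only a number, and the deviations of same-numbered arrays correlated between -0.0464 and 0.152. With a replicate block the difference was -4.37 (adjusted p = 0.000156) and the calls between RF and UF numbered 3685.

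The number of probe sets called between RF and UF was 3691. It was 39 by the methods' t-test after adjustment and 2627 before it, 9864 with olive-median centring, 2345 among sets with a mean level of 6 or more, 1166 among olive sets only and 14692 at a log2 difference of at least 1. Leaving out 1 fruit array gave 3255 to 6497, the highest without RF replicate 1.

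With olive-median centring the leaf differences of the EST were 4.50 for OFF-M minus OFF-J, 3.48 for ON-M minus ON-J, -0.36 for ON-M minus OFF-M and 0.67 for ON-J minus OFF-J. Leaving out 1 array gave 4.69 to 5.14, 2.78 to 2.87, -1.15 to -0.98 and 0.81 to 1.26 in the same order. ON-M has 1 array, so that no value without it exists, and signal near the random control limits what RF can show.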

Other observations

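The olive ESTs whose profile was most opposite to that of GO245913_1 over the 11 arrays were CK087199_1 (r = -0.909), GO245359_1 (r = -0.901) and GO244432_1 (r = -0.878), none of which has an annotation here. CK087199_1 read 11.86 and 11.96 in UF, 13.90 and 13.99 in RF, 12.86 on both OFF-J arrays, 11.90 and 11.75 in OFF-M, 12.93 and 12.74 in ON-J and 11.14 in ON-M. All 3 were highest in RF and lower in mature than in juvenile leaves of both years. GO244432_1 rose most between UF and RF, from 12.77 and 12.81 to 14.94 and 15.04 (log2 difference 2.20, limma adjusted p = 0.000143). The choice by r over arrays of fruits and leaves largely set the direction of this rise and of those leaf differences.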
